A study of Mus musculus with 12 samples.

Results

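The auditory nerve of CBA/CaJ mice at postnatal day 21 (P21) was compared with that of newborn mice (P0), the oldest and youngest stages of a 6-stage series. The comparison rests on 4 of the 12 arrays of the series, 2 at P21 and 2 at P0, chosen by the stage in their titles. The other 8 arrays, 2 each at P3, P7, P10 and P14, entered only the estimate of the spread and the course of single genes. All mice were untreated, of the CBA/CaJ strain, which keeps good hearing into age, and both sexes were used. The tissue was the modiolus, the bony core of the cochlea that houses the nerve. It was dissected free of the outer bone, the lateral wall and most of the sensory epithelium, and the left and right cochlea of a mouse were pooled into 1 sample. The modiolus holds neurons, glia, bone, vessels and marrow, so in these bulk samples fewer cells of a type and less RNA per cell cannot be told apart.

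The auditory nerve is made of spiral ganglion neurons, bipolar cells that carry sound signals from the hair cells to the brainstem. Their axons are wrapped by Schwann cells inside the cochlea and by oligodendrocytes on the side of the brain, with an astrocyte-rich border between the territories. A newborn mouse is deaf, its nerve fibres are barely myelinated and its cochlea is still building cartilage, bone and the matrices over the hair cells. Hearing begins toward the end of the second postnatal week, and by the age of weaning the nerve fires fast, well-timed spikes along myelinated axons.

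Values are log2 RMA values, so a difference of 1 is 2-fold. For each gene the probe set with the highest mean over the 12 arrays was taken, and it is called where limma's adjusted p was under 0.05 and the fold over 1.5. Between P21 and P0, 12262 of 45037 probe sets were called (27.2% of those tested), 5563 of them higher at P21 (12.4%) and 6699 lower (14.9%). Among 18193 genes, 2783 were higher at P21 (15.3%) and 3075 lower (16.9%), 5858 in all (32.2%). These 15.3% and 16.9% are the background for the list counts below, except where a count is from another fit. The median difference over all genes was 0.03. Arrays of the stages did not overlap for 73.2% of the genes, so with 2 arrays a stage a lack of overlap by itself is the usual state of a gene here. Called changes over 4-fold numbered 1331, with 734 higher at P21 and 597 lower. Over 16-fold there were 50 genes higher at P21 and 15 lower. Called genes had 6164 further probe sets, of which 2642 were called in the same direction and 91 in the opposite one.

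Both P21 arrays agreed less closely than both P0 arrays. Across all probe sets the correlation was 0.991 at P21 and 0.996 at P0, and the share of probe sets that differed by more than 1.5-fold was 6.3% between the P21 arrays and 1.4% between the P0 arrays. Replicate 2 at P21 stood above replicate 1 in the mean level of the neuron list (11.13 and 10.60, with 9.90 and 9.73 on the P0 arrays) and of the list for cerebellar and brainstem neurons (7.45 and 6.91, with 6.73 and 6.68 at P0). Replicate 1 stood above replicate 2 in the melanocyte list (7.79 and 6.68, with 7.20 and 7.69 at P0). The part of tissue composition in the results was not tested. The P14 and P3 arrays come from mice in neither group, and 91.9% of the called probe sets had the same sign in P14 minus P3, as did 97.1% of those over 4-fold and 59.2% of those not called.

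Transcripts of the sex chromosomes did not separate the arrays as single mice would. Xist, the noncoding RNA made from the inactive X of females, was above 12 on 9 of 12 arrays, and the Y-linked genes Eif2s3y, Kdm5d and Uty were all above 7.5 on 9 of 12. On 6 arrays both were high at once. Kdm5d, Uty and the limits were chosen after the values were seen. At P21, replicate 1 had 13.09 for Xist and 9.52 for Eif2s3y, and replicate 2 had 13.29 and 3.83. At P0, replicate 1 had 12.26 for Xist and 8.72 for Eif2s3y, and replicate 2 had 8.12 and 9.75. High Xist together with high Y-linked transcripts thus occurred on 1 of the P21 arrays and 1 of the P0 arrays, while the labels describe every sample as the paired cochleas of a mouse. The source of this mixture was not tested. Between the stages neither Xist nor Eif2s3y was called (adjusted p = 0.359 and 0.389).

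**Figure D1:**
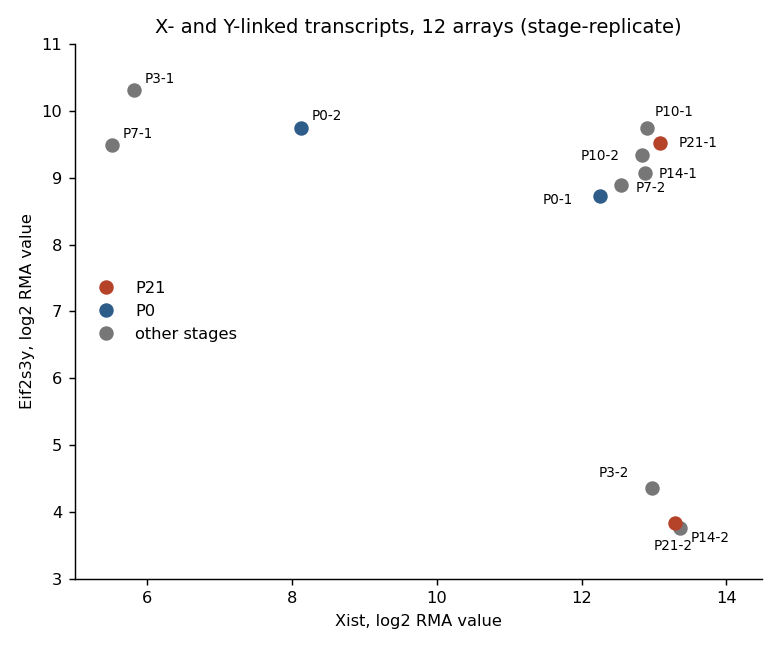
Log2 RMA value of Xist (horizontal axis) against that of the Y-linked gene Eif2s3y (vertical axis) on each of the 12 arrays, coloured by stage and labelled by stage and replicate. P21 replicate 1 and P0 replicate 1 sit with 4 other arrays at the upper right, where both transcripts are high, and P21 replicate 2 is high for Xist alone.

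The P21 arrays also differed from all others in the balance between the 3′ and 5′ ends of the control transcripts. Labelling starts at the 3′ end of the RNA, so shorter RNA or shorter labelled copies lower the 5′ signal. For Actb (β-actin) the 3′ probe set exceeded the 5′ probe set by 2.32 and 2.03 on the P21 arrays, against 0.92 and 0.95 on the P0 arrays. For Gapdh, a glycolytic enzyme, the excess was 1.65 and 1.37 at P21, against 0.48 and 0.50 at P0. The P21 values lay above those of all 10 other arrays, which spanned 0.81 to 1.41 for Actb and 0.18 to 0.68 for Gapdh. The same held for pyruvate carboxylase (Pcx), where P21 exceeded P0 by 1.52, whereas the transferrin receptor (Tfrc) differed by 0.15 (controls added after the values of Actb and Gapdh were seen). When the Actb balance was put into the fit as a covariate, 605 of 45037 probe sets were called, 365 higher and 240 lower. Of the 605, 569 were among the 12262. List counts from that fit are to be set against these numbers, not against the background shares given above. The gene lists below held 95 called genes in that fit, against 651 without it. Because both P21 arrays have the highest balance, stage and balance cannot be told apart in that fit, and the part of RNA length in the results below was not tested.

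**Figure D2:**
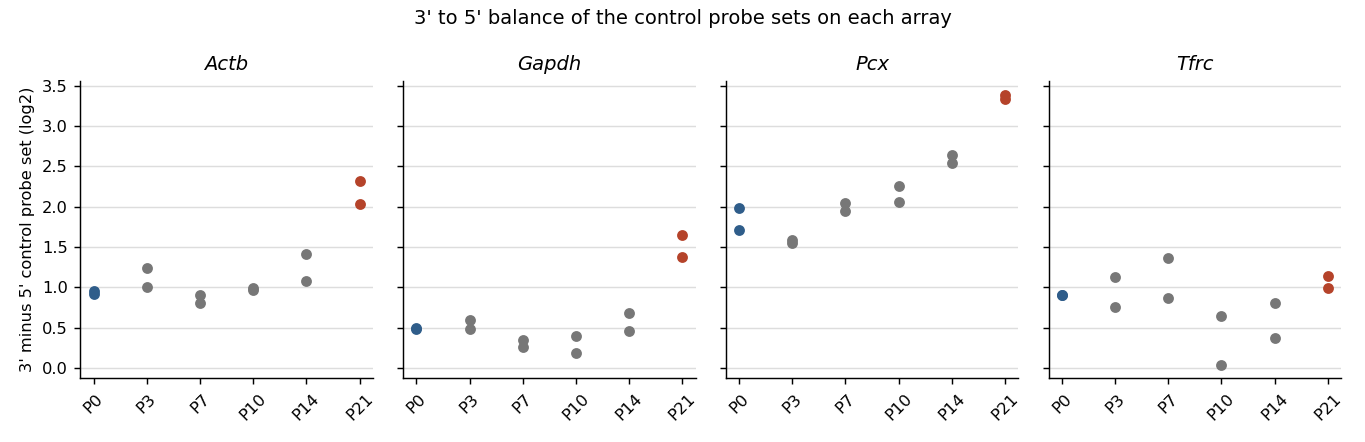
Log2 value of the 3′ control probe set minus that of the 5′ control probe set for Actb, Gapdh, Pcx and Tfrc (vertical axis) on each array at the 6 stages (horizontal axis), a point per array. Both P21 points lie above every other array for Actb, Gapdh and Pcx, and within the range of the other arrays for Tfrc.

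The largest rises belonged to myelin, to the fibrocytes and bone around the nerve, and to neuronal membranes. Mobp, a myelin protein of oligodendrocytes, had 13.03 and 12.73 at P21, against 3.61 and 4.53 at P0, which is at least 221-fold higher because the P0 values lie in the lowest 25% of their arrays. Otos, the otospiralin of cochlear fibrocytes, had 14.38 and 14.35 at P21, against 5.41 and 6.37 at P0, a difference of 8.48 ± 0.30 (SE, adjusted p = 2.56e-07). Glra3, a subunit of the inhibitory glycine receptor, had 12.07 and 11.77 at P21, against 4.69 and 4.59 at P0, at least 114-fold higher. All 3 lay below the array median in newborns and among the bright signals in weanlings, though the other probe set of Glra3 differed by 0.18 and was not called.

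Prg4 (lubricin, a surface lubricant of joints and connective tissue) rose by 6.17 ± 0.40, Thy1, a surface glycoprotein of mature neurons and of fibroblasts, by 5.93 ± 0.26, and Otop1 (otopetrin, a proton channel) by at least 32.2-fold. The astrocyte water channel Aqp4 had 12.78 and 12.68 at P21, against 7.52 and 6.54 at P0 (difference 5.70 ± 0.37, adjusted p = 3.30e-06). The list of the 15 largest rises was completed by the bone genes Ibsp and Dmp1 and the oligodendrocyte genes Mog and Olig1. It also held the muscle-type cytochrome oxidase subunit Cox8b, the zinc transporter Slc39a12, the methyltransferase Inmt and the protease inhibitor Spink8. The other probe set of Slc39a12 differed by 0.05 and was not called. Of the 15, Mobp, Glra3, Aqp4, Mog, Cox8b, Inmt and Olig1 lost their calls with the Actb balance in the fit.

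The largest falls belonged to the inner ear matrices and to genes of young neurons and mesenchyme. Oc90 (otoconin-90, the main protein of the ear stones) had 5.48 and 5.72 at P21, against 13.29 and 13.57 at P0, a difference of -7.83 ± 0.23 (adjusted p = 1.91e-07). Tecta (α-tectorin, a structural protein of the tectorial membrane) had 5.43 and 6.77 at P21, against 13.05 and 13.21 at P0 (-7.03 ± 0.55). Crym, a thyroid hormone-binding protein, had 6.95 and 6.91 at P21, against 12.91 and 13.07 at P0 (-6.06 ± 0.29). All 3 were among the bright signals of newborn tissue and lay close to the array median or below it at P21.

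Crabp1, a carrier of retinoic acid, was at least 43.7-fold lower at P21. The ATP-gated channel P2rx3 was at least 36.5-fold lower and the lectin Chodl at least 30.6-fold lower. The 2 other probe sets of P2rx3 differed by -2.55 and -0.03, and 1 of them was called. Agtr2, the type 2 receptor of angiotensin, fell by 5.26, and Sfrp2, a secreted Wnt antagonist, fell by 4.87. The other members of the 15 largest falls were the matrix genes Fbn2, Fras1, Mfap2, Matn1 and Col26a1. The growth cone protein Gap43 and the chromatin protein Hmga2 completed them. The other probe set of Col26a1 differed by -0.26 and was not called. Of the 15, Tecta, Sfrp2, Gap43, Matn1, Hmga2 and Col26a1 lost their calls with the Actb balance in the fit.

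**Figure D3:**
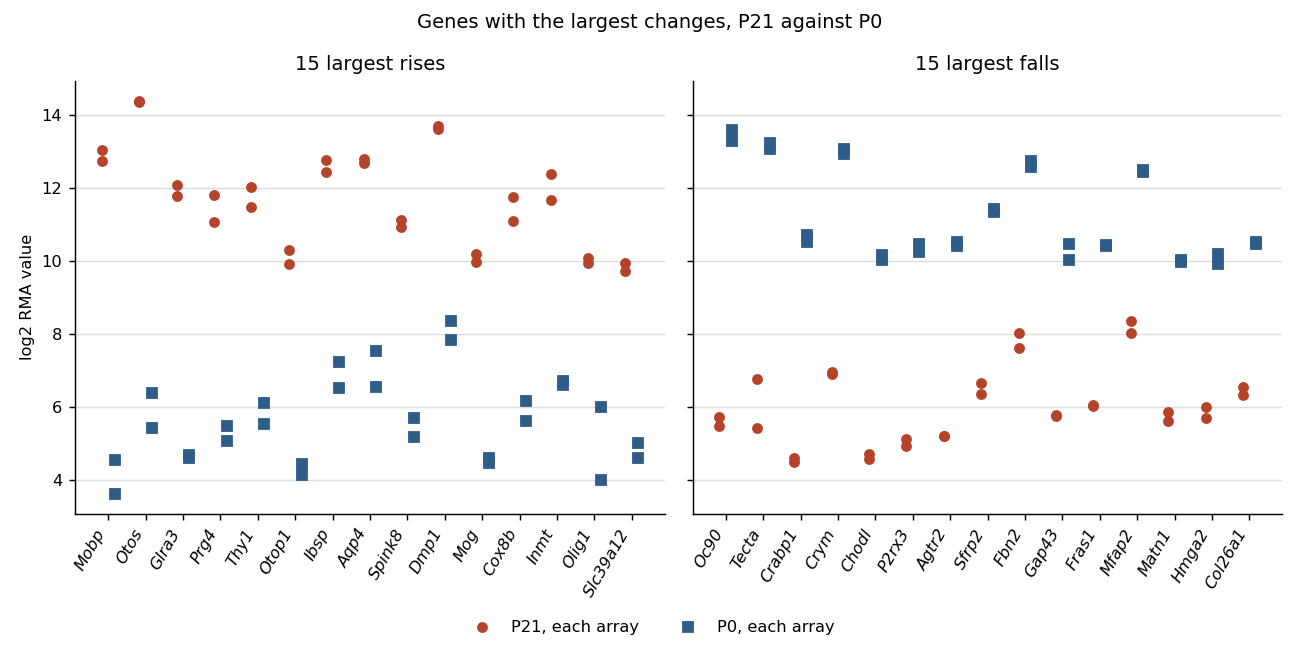
Log2 RMA value (vertical axis) of the 15 genes with the largest rises and the 15 with the largest falls, with each P21 array as a circle on the left of each gene and each P0 array as a square on its right. P21 and P0 arrays are separated by at least 4 log2 units on average in every gene shown.

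Genes of cell division fell together. Of 57 measured members of the list for cell division and DNA replication, 52 were lower at P21, 1 was higher and 4 were not called (91.2% lower, against 16.9% of all genes), with a median difference of -2.14. Top2a, the topoisomerase that untangles replicated chromosomes, had 7.30 and 7.54 at P21, against 10.86 and 10.77 at P0 (-3.40 ± 0.50, adjusted p = 0.000431). Kif11, a motor that pushes the spindle poles apart, had 5.93 and 6.30 at P21, against 9.56 and 9.21 at P0 (-3.27 ± 0.48, adjusted p = 0.000398). Cdk1, the kinase that drives entry into mitosis, had 6.58 and 6.36 at P21, against 9.82 and 9.52 at P0 (-3.20 ± 0.38, adjusted p = 0.00012). In each of these genes the stages were separated by more than 2 log2 units on every pair of arrays.

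The checkpoint kinase Bub1 fell by 3.60, the mitotic motor Kif2c by 3.63, and Kif20a, which acts in cytokinesis, was at least 7.62-fold lower. The 2 other probe sets of Top2a, which are dimmer, differed by -0.08 and -0.36 and were not called. Mki67, the usual proliferation marker, differed by -2.18 ± 0.62 (adjusted p = 0.0175), and its call was lost when any 1 of the 4 arrays was left out, with differences of -2.10 to -2.27. Ezh2, a histone methyltransferase of dividing cells, fell by 1.90 ± 0.19, and Cdkn1c, an inhibitor of the cell cycle expressed in growing tissue, fell by 2.08 ± 0.17. The list's median did not fall at every step, with -0.55 at P3, -1.14 at P7, -1.43 at P10 and -1.08 at P14, each relative to P0, before -2.14 at P21. With the Actb balance in the fit, 1 member of this list was called lower. Top2a, Kif11 and Cdk1 lost their calls in it (adjusted p = 0.722, 0.685 and 0.477).

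Promoters of cell division genes often carry CCAAT boxes, bound by the factor NF-Y, and a nearby TTTGAA element, the binding sequence of the complexes that silence these genes in resting cells. Windows of 250 bases before to 50 bases after the annotated start were available from RefSeq (build GRCm38.p6) for 46 of the 57 genes. CCAAT on either strand was present in 33 of them (71.7%, against 42.0% of the 14449 measured genes with a window), TTTGAA on either strand in 20 (43.5%, against 15.7%) and both motifs in 19 (41.3%, against 6.21%). The windows of Top2a, Kif11 and Cdk1 are shown. These 3 genes were picked among those that carry both motifs, and they are not the 3 largest falls of the list. The choice also left out genes by chromosome, whatever their motifs. A gene that is not shown here may therefore carry both motifs too. Kif2c (-3.63) and Bub1 (-3.6) fell further between P0 and P21 than all 3. Kif20a, with a measured difference of -3.35, fell further than Kif11 and Cdk1. The 3 windows are therefore not typical of the list, in which 41.3% of the genes with a window carry both motifs. Capitals mark CCAAT or TTTGAA, or their reverse complements ATTGG and TTCAAA. The Top2a window is chr11:99024140-99024439 on the minus strand, that of Kif11 chr19:37376132-37376431 on the plus strand and that of Cdk1 chr10:69352863-69353162 on the minus strand.
Top2a: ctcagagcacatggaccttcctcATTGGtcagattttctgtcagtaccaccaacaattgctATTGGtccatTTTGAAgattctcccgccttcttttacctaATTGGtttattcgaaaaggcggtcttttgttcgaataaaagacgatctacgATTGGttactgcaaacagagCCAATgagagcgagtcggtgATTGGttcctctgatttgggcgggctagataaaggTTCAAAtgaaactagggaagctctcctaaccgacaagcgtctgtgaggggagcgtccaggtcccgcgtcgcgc
Kif11: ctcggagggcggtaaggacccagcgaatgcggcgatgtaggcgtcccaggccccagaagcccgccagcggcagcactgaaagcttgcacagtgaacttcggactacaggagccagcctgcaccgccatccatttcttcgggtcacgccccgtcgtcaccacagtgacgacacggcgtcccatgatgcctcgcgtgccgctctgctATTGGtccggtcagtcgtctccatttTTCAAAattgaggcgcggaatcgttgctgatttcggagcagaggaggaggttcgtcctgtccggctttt
Cdk1: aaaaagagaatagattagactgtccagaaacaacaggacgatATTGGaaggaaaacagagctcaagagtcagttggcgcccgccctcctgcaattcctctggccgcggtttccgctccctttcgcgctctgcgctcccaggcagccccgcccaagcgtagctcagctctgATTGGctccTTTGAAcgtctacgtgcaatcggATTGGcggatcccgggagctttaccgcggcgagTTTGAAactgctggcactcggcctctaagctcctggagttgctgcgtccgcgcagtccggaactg
A match of these letters is a description of the window and does not show that a factor was bound in these cells.

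Among genes of growing and pathfinding axons, lower calls outnumbered higher ones. In the list for axon growth and the young neuron, 15 of 28 members were lower at P21, 3 higher and 10 not called (median -0.87). In the axon guidance list, 20 of 47 were lower, 2 higher and 25 not called (median -0.48). Gap43, a membrane protein of growth cones, had 5.74 and 5.77 at P21, against 10.46 and 10.03 at P0 (-4.49 ± 0.25, adjusted p = 1.43e-06). Dcx (doublecortin, a microtubule-binding protein of migrating and newly born neurons) had 6.66 and 6.57 at P21, against 10.58 and 10.43 at P0 (-3.89 ± 0.14, adjusted p = 2.53e-07). Both genes had arrays that were tightly grouped within each stage and far apart between stages.

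The fetal tubulin Tubb2b fell by 2.09 and the growth cone protein Dpysl3 by 1.96. The neuronal transcription factor Sox11 fell by 2.76. Among guidance genes the netrin relative Ntn4 rose by 2.50 ± 0.16, whereas the Slit receptor Robo2 fell by 2.31 and the Eph ligand Efna2 by 1.76. Nrn1 (neuritin, induced by activity in mature neurons) rose by 2.64 ± 0.20. The Actb balance as a covariate left 5 axon growth genes and 1 guidance gene called lower, and 0 higher. Without P21 replicate 1, 6 members of the axon growth list and 5 of the guidance list were called higher, in place of 3 and 2.

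Among signals and factors of the embryonic and fetal programme, more members were called lower than higher in each of 4 lists. Of the 27 Notch pathway genes, 13 were lower and 1 higher (median -0.58). Hes5, a Notch target that holds progenitors undifferentiated, had 6.29 and 6.09 at P21, against 9.61 and 9.20 at P0 (-3.22 ± 0.20), the ligand Jag1 fell by 1.86 and the receptor Notch1 by 1.5. In the Hedgehog and Wnt list, 22 of 42 genes were lower and 8 higher (median -0.61), with the Wnt transcription factor Lef1 down by 2.19 ± 0.17. The members that rose furthest there were Sost (sclerostin, a Wnt inhibitor made by osteocytes) at 4.78 ± 0.25, the Wnt inhibitor Dkk1 at 2.72 ± 0.32 and the ligand Shh at 2.40 ± 0.21. The other probe set of Sost and that of Shh, both dimmer, were not called.

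Of 42 fetal RNA-binding and chromatin factors, 21 were lower at P21 and 4 higher (median -0.61). Hmga2, a chromatin protein of embryonic tissue, had 5.98 and 5.69 at P21, against 9.91 and 10.18 at P0 (-4.21 ± 0.23, adjusted p = 1.25e-06), and Igf2bp3, a fetal RNA-binding protein that stabilises growth mRNAs, fell by 3.06 ± 0.19. In the list of imprinted growth genes, 12 of 26 were lower and 6 higher. Grb10, which restrains insulin signalling, fell by 3.08 ± 0.16, the mesoderm gene Mest fell by 2.76 ± 0.17 and the fetal growth factor Igf2 fell by 1.18 ± 0.19. The adjusted p of each of these genes was under 0.001. The Actb balance as a covariate left 1 Notch, 3 Hedgehog and Wnt, 2 fetal and 1 imprinted gene called lower, and 0 higher.

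Most myelin genes rose, on the Schwann cell side and on the oligodendrocyte side. Of 18 measured peripheral myelin genes, 15 were higher at P21, none lower and 3 not called (83.3% higher, against 15.3% of all genes), with a median difference of 2.17. Mag, the adhesion protein of the innermost myelin wrap, had 10.67 and 10.74 at P21, against 6.42 and 6.12 at P0 (4.43 ± 0.16, adjusted p = 2.56e-07). Fa2h, which hydroxylates the fatty acids of myelin lipids, had 11.17 and 11.24 at P21, against 6.67 and 6.52 at P0 (4.61 ± 0.14, adjusted p = 1.91e-07). Mbp, the basic protein that compacts myelin, was already bright in newborns, with 14.40 and 14.41 at P21, against 12.44 and 11.87 at P0 (2.25 ± 0.16). The gap junction protein Gjb1 rose by 3.27 ± 0.20 and the Schwann cell protein Ncmap by 3.75 ± 0.16.

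The list was close to its final level by P7, with medians of 0.86 at P3, 2.10 at P7, 2.20 at P10 and 2.24 at P14 relative to P0. Pmp2, a fatty acid-binding protein of peripheral myelin, ran a different course. It stood 5.96 above P0 at P7, and at P21 it had 7.19 and 6.08, against 4.09 and 4.71 at P0, a difference of 2.24 ± 0.37. Its value at P21 was 1.93 below that at P14 (adjusted p = 0.027). In all, 6 myelin genes were called with the Actb balance in the fit, Mag and Fa2h among them.

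On the side of the central nervous system, 17 of 19 oligodendrocyte and central myelin genes were higher at P21 and none lower (median 2.54). Mog, on the outer surface of central myelin, had 10.18 and 9.96 at P21, against 4.47 and 4.60 at P0, at least 31.6-fold higher. Olig1, a transcription factor of the oligodendrocyte line, had 10.06 and 9.94 at P21, against 5.98 and 3.99 at P0 (5.01 ± 0.61). Hapln2, a link protein of central nodes, had 8.68 and 8.01 at P21, against 4.53 and 5.01 at P0, at least 9.55-fold higher. It was one of the late genes, 2.02 above P14 at P21 (adjusted p = 0.00495). Mobp, Mog and Hapln2 were in the lowest 25% of the P0 arrays, so their newborn values are upper bounds only. With the Actb balance in the fit, 3 genes of this list were called higher, and Mobp, Mog, Olig1 and Hapln2 lost their calls (adjusted p = 0.0848, 0.103, 0.607 and 0.103).

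Of 15 astrocyte genes, 10 were higher at P21 and 1 lower (median 1.32). The calcium-binding protein S100b rose by 2.75 ± 0.15, the folate enzyme Aldh1l1 by 3.02 ± 0.19 and the neurotensin receptor Ntsr2 by 4.38 ± 0.40. Gfap, the filament of astrocytes and nonmyelinating Schwann cells, was 0.88 ± 0.19 higher by its brightest probe set, while its 2 other probe sets differed by 3.14 and 3.94. Slc1a2, the astrocyte glutamate transporter, differed by 0.13 (adjusted p = 0.645). Of the astrocyte genes, 1 was called higher with the Actb balance in the fit.

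The list of immature Schwann cell and glial precursor genes did not move as a block, with 7 of 21 lower, 2 higher and 12 not called (median -0.12). The endothelin receptor Ednrb fell by 2.01 ± 0.21, the lipid carrier Fabp7 by 1.13 ± 0.17, and the progenitor factors Sox2 and Foxd3 by 0.87 ± 0.16 and 0.84 ± 0.15. Sox2 remained bright, with 11.35 and 11.27 at P21, against 12.19 and 12.17 at P0. The neurotrophin receptor Ngfr, with 8.69 and 9.42 at P21 against 9.20 and 8.98 at P0, overlapped between the stages. Without P0 replicate 2, 1 member of this list was called higher. Of the genes picked for PCR, 13 have a probe set here, and 8 were lower at P21 (Dcx, Ednrb, Nedd4l, Fgf10, Sox2, Foxd3, Calb1 and Vim), Gfap and Shh were higher, and Nes, Ngfr and Gdnf were not called. Calb1, at -0.80, was not called without P21 replicate 1 (-0.77) or without P0 replicate 2 (-0.65).

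In the list of neuronal structure and synapse, 19 of 32 genes were higher at P21, 8 lower and 5 not called (median 1.0). The counts were 8 higher and 1 lower with the Actb balance in the fit. Nefh, the heavy neurofilament that sets axon calibre, had 13.05 and 13.57 at P21, against 10.43 and 10.17 at P0 (3.01 ± 0.20, adjusted p = 3.42e-06). Vamp1, a vesicle fusion protein, had 11.14 and 11.76 at P21, against 6.72 and 6.72 at P0 (4.73 ± 0.25). Thy1 had 11.47 and 12.01 at P21, against 6.09 and 5.53 at P0. The higher of the P21 values was that of replicate 2 in all 3 genes, by 0.52 to 0.62, less than the gap to P0.

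The calcium sensor Syt2 rose by 3.52 ± 0.26, the calcium buffers Calb2 and Pvalb by 3.37 ± 0.18 and 1.91 ± 0.16, and the fusion protein Snap25 by 2.74 ± 0.13. Members that fell included the syntaxin Stx1a, by 1.58, and the peripheral filament Prph, a marker of type II spiral ganglion neurons, by 1.82. Averaged over its probe sets, Prph differed by -0.24 (adjusted p = 0.07) and was not called. The general neuronal tubulin Tubb3, with 9.09 and 9.86 at P21 against 9.02 and 8.69 at P0, was not called (adjusted p = 0.0773). Genes of spiral ganglion neuron identity showed little net change, with 4 of 19 higher, 3 lower and 12 not called (median 0.01). These shares of 21.1% and 15.8% were near the 15.3% and 16.9% of all genes. The defining factors Gata3, Prox1 and Ntrk3 were not called, at -0.68, -0.80 and 0.50. Without P21 replicate 1, 7 members of this list were called higher, and without P21 replicate 2, 6 were called lower. In these fits Gata3, Ntrk3 and Tubb3 passed the test without P21 replicate 1, at -1.02, 1.10 and 1.0, and Prox1 without P21 replicate 2, at -1.38. Prox1 also passed with an intensity trend, array weights, a common median or dim probe sets left out (adjusted p = 0.0357 to 0.0458). A replicate block with crossed numbers let Prox1, Gata3 and Tubb3 pass (limma adjusted p = 0.0457, 0.02 and 0.0353).

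Ion channels of the action potential exchanged members. Of 36 channels and pumps, 17 were higher at P21 and 9 lower (median 0.33), and of 19 genes of the node of Ranvier, the gap in the myelin where spikes are renewed, 12 were higher and 2 lower (median 1.61). Kcnc1, a potassium channel that ends spikes quickly, had 11.69 and 12.37 at P21, against 7.46 and 6.98 at P0 (4.81 ± 0.24, adjusted p = 7.43e-07). The 3 other probe sets of Kcnc1 differed by -0.07 to 2.25, and 2 of them were called. Kcna1, the potassium channel beside the node, had 13.03 and 13.42 at P21, against 9.39 and 9.16 at P0 (3.95 ± 0.18). Scn8a, the sodium channel of mature nodes, had 10.93 and 11.74 at P21, against 7.73 and 7.11 at P0 (3.92 ± 0.31). These channels separated the stages by at least 3 log2 units on every pair of arrays.

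Scn9a and Scn3a, sodium channels of sensory and immature neurons, fell. Scn9a had 5.76 and 5.94 at P21, against 9.79 and 9.76 at P0 (-3.92 ± 0.15, adjusted p = 2.91e-07), and Scn3a had 6.18 and 6.18 at P21, against 8.85 and 8.36 at P0 (-2.42 ± 0.17). Scn1a rose by 3.68 ± 0.30, the accessory subunit Scn4b by 3.95 ± 0.26 and Kcna2 by 3.02 ± 0.19, whereas Scn2a, with a difference of -0.35, was not called. The anchoring protein Nfasc rose by 2.07 ± 0.18. Among matrix proteins of the node list, the newborn proteoglycan Vcan had 7.49 and 7.18 at P21, against 11.28 and 11.01 at P0 (-3.81 ± 0.26). With the Actb balance in the fit, 6 channels were called higher and 2 lower.

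Transmitter receptors were mixed, with 14 of 36 higher at P21, 6 lower and 16 not called (median 0.40). In the fit with the Actb balance, 0 receptor genes were called higher and 1 lower. Glrb, the subunit that anchors glycine receptors, rose by 2.30 ± 0.18, the AMPA receptor subunit Gria2 by 1.94 ± 0.27 and the ATP-gated channel P2rx2 by 2.38 ± 0.30. Its relative P2rx3 had 4.93 and 5.11 at P21, against 10.45 and 10.25 at P0. Gabra6, the GABA receptor subunit of cerebellar granule cells, had 6.92 and 9.92 at P21, against 4.46 and 4.59 at P0, at least 10.1-fold higher but 3.00 apart between the P21 arrays. Slc12a5, the chloride cotransporter of mature central neurons, had 8.26 and 10.28 at P21, against 6.99 and 7.23 at P0. Glra1 had 4.68 and 7.61 at P21, against 4.28 and 4.23 at P0. Glra1 lost its call without P21 replicate 2 (0.42), P0 replicate 1 (1.92) or P0 replicate 2 (1.86), and Slc12a5 without P21 replicate 2 (1.15) or P0 replicate 1 (2.04). Without P0 replicate 2, 3 receptor genes were called lower. In the list of cerebellar and brainstem neurons, 8 of 29 genes were higher and 3 lower, with 5 lower without P21 replicate 2 and 1 without P0 replicate 1. The part of attached brainstem tissue in the neuronal changes was not tested.

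Of 29 genes of the cytosolic ribosome and its assembly, 16 were lower at P21 and 1 higher (median -0.62), with the nucleolar proteins Nop58, Fbl and Ncl lower, at -1.88, -1.40 and -1.36. The 1 that rose was Eef1a2, the elongation factor of mature neurons and muscle, at 0.82 ± 0.24. It lost its call without P21 replicate 2 (0.40) and without P0 replicate 1 (0.85) or P0 replicate 2 (0.80). Of 48 genes of oxidative phosphorylation, 12 were higher, none lower and 36 not called (median 0.40). Ppargc1a, the coactivator that drives mitochondrial growth, had 11.33 and 11.66 at P21, against 9.62 and 9.59 at P0 (1.89 ± 0.15, adjusted p = 8.95e-06). Cox8b had 11.73 and 11.08 at P21, against 5.60 and 6.16 at P0 (5.52 ± 0.37). In the fit with the Actb balance, 0 genes of the ribosome list and 0 of the oxidative phosphorylation list were called.

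In the glycolysis, lactate and glucose list, 17 of 38 genes were higher and 7 lower (median 0.35). Ckmt1, the mitochondrial creatine kinase of brain, rose by 2.44 ± 0.25 and Pdk4, which diverts pyruvate from oxidation, by 2.80 ± 0.16. The metal-binding metallothioneins rose together, Mt1 with 13.11 and 13.66 at P21 against 9.59 and 9.60 at P0 (3.79 ± 0.18) and Mt2 with 13.07 and 13.35 at P21 against 8.88 and 9.05 at P0 (4.24 ± 0.19). The neuronal form Mt3 rose by 2.96 ± 0.20. Cholesterol synthesis, which supplies myelin, was close to the background, with 4 of 21 genes higher and 1 lower (median 0.27), Hmgcs1 among them at 1.0 ± 0.09. With the Actb balance in the fit, 2 genes of the glycolysis list and 0 of the cholesterol list were called higher, and 0 lower in either. Ckmt1 and Hmgcs1 lost their calls.

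Most bone-forming genes rose and most fibrous matrix genes fell. Of 17 bone-forming genes, 13 were higher at P21 and none lower (median 1.93), and 5 were called higher with the Actb balance in the fit. Ibsp (bone sialoprotein) had 12.76 and 12.42 at P21, against 7.23 and 6.51 at P0 (5.72 ± 0.23, adjusted p = 4.11e-07), and Dmp1, a matrix protein of osteocytes, had 13.70 and 13.60 at P21, against 8.34 and 7.82 at P0 (5.57 ± 0.21). The phosphate regulator Phex rose by 4.92 ± 0.21 and Mepe by 3.98 ± 0.25. The other probe set of Phex rose by 1.1 and was called. The bone list was highest in the middle of the series, with medians of 3.54 at P7, 3.52 at P10 and 2.79 at P14 relative to P0, and its median difference between P21 and P14 was -0.71.

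Cartilage genes divided, with 6 of 26 higher and 10 lower (median -0.36). Col2a1, the main collagen of cartilage, had 11.42 and 11.70 at P21, against 13.62 and 13.61 at P0 (-2.06 ± 0.11), and most of that fall lay after P14 (-1.81 between P21 and P14, adjusted p = 0.000327). The matrilins Matn1 and Matn4 fell by 4.26 and 3.73, whereas Ucma, a protein of resting cartilage, rose by 4.0 ± 0.21 and the proteoglycan Acan by 2.62 ± 0.26. Of 38 fibroblast and fibrous matrix genes, 27 were lower, 5 higher and 6 not called (71.1% lower, median -1.21). Fbn2, the fibrillin of fetal microfibrils, had 8.01 and 7.62 at P21, against 12.72 and 12.57 at P0 (-4.83 ± 0.15, adjusted p = 1.91e-07), and its partner Mfap2 fell by 4.28 ± 0.20. Col3a1 fell by 1.27, and Dcn (decorin), with 13.37 and 13.49 at P21 against 13.31 and 13.29 at P0, was not called. With the Actb balance in the fit, 3 cartilage genes were called higher and 3 lower. In the fibrous matrix list 1 was called higher and 3 lower. Col2a1, Matn1, Matn4, Acan and Col3a1 lost their calls in that fit, whereas Fbn2 and Mfap2 kept theirs.

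Markers of tissue that the dissection aims to remove were also measured. Of 25 lateral wall and fibrocyte genes, 13 were higher at P21 and 3 lower (median 0.84). Coch (cochlin, an abundant matrix protein of fibrocytes) had 14.23 and 14.32 at P21, against 12.15 and 12.28 at P0 (2.06 ± 0.26), while Kcne1, a channel subunit of the potassium-secreting marginal cells, had 9.13 and 5.98 at P21, against 8.53 and 9.01 at P0. The pigment cell genes Dct and Tyr had the same pattern, with 11.78 and 7.07 for Dct at P21, against 9.62 and 10.49 at P0. P21 replicate 1 was high and P21 replicate 2 low for these 3 genes, and none of the 3 was called. With the Actb balance in the fit, 3 lateral wall and fibrocyte genes were called higher and 1 lower, and Coch lost its call.

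Of 21 hair cell genes 4 were higher and 4 lower (median -0.01). Atoh1, the factor that specifies hair cells, fell by 3.18 ± 0.15, and the hair cell markers Myo7a and Pou4f3 were not called, at -0.58 and -0.48. Myo7a passed with arrays shifted to a common median (-0.61, adjusted p = 0.0281). Without P21 replicate 2, 2 hair cell genes were called lower, and without P0 replicate 2, 1 was. Supporting cell, tectorial and otoconial genes counted 9 lower and 4 higher of 25 (median -0.40). Besides Oc90 and Tecta, Tectb (β-tectorin) had 9.28 and 8.99 at P21, against 12.99 and 13.23 at P0 (-3.98 ± 0.42), and Otoa, with 10.05 and 9.68 at P21 against 10.08 and 10.30 at P0, was not called. With the Actb balance in the fit, 2 hair cell genes and 2 supporting cell genes were called lower, and 0 higher in either list. Tecta and Tectb lost their calls in that fit, and Oc90 kept its call. The lists of hair cells and supporting cells had mean levels of 7.20 and 7.03 at P21 against 7.05 and 7.20 at P0 for hair cells and 10.00 and 9.91 at P21 against 10.72 and 10.81 at P0 for supporting cells.

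Genes of the meninges, the sheath around the central part of the nerve, changed in both directions, with 8 of 16 higher and 5 lower (median 0.75). The organic cation transporter Slc22a2 had 9.75 and 10.35 at P21, against 5.85 and 5.51 at P0 (4.37 ± 0.21, adjusted p = 7.43e-07), and Slc6a20a and Slc13a4 rose by 4.76 ± 0.44 and 3.35 ± 0.20. Vessel genes were mixed, with 7 of 32 higher and 8 lower (median -0.16). The thyroid hormone transporter Slco1c1 of the blood-brain barrier had 13.07 and 12.98 at P21, against 9.59 and 9.45 at P0 (3.50 ± 0.13), and the efflux pump Abcb1a rose by 2.15 ± 0.19. The angiogenic receptor Kdr fell by 1.42 ± 0.17, and the junction protein Cldn5, with 9.95 and 10.48 at P21 against 10.36 and 10.14 at P0, was not called. Without P0 replicate 1, 5 vessel genes were called lower. The Actb balance as a covariate left 6 genes of the meninges called higher and 0 lower, and 3 vessel genes higher and 1 lower.

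**Figure D4:**
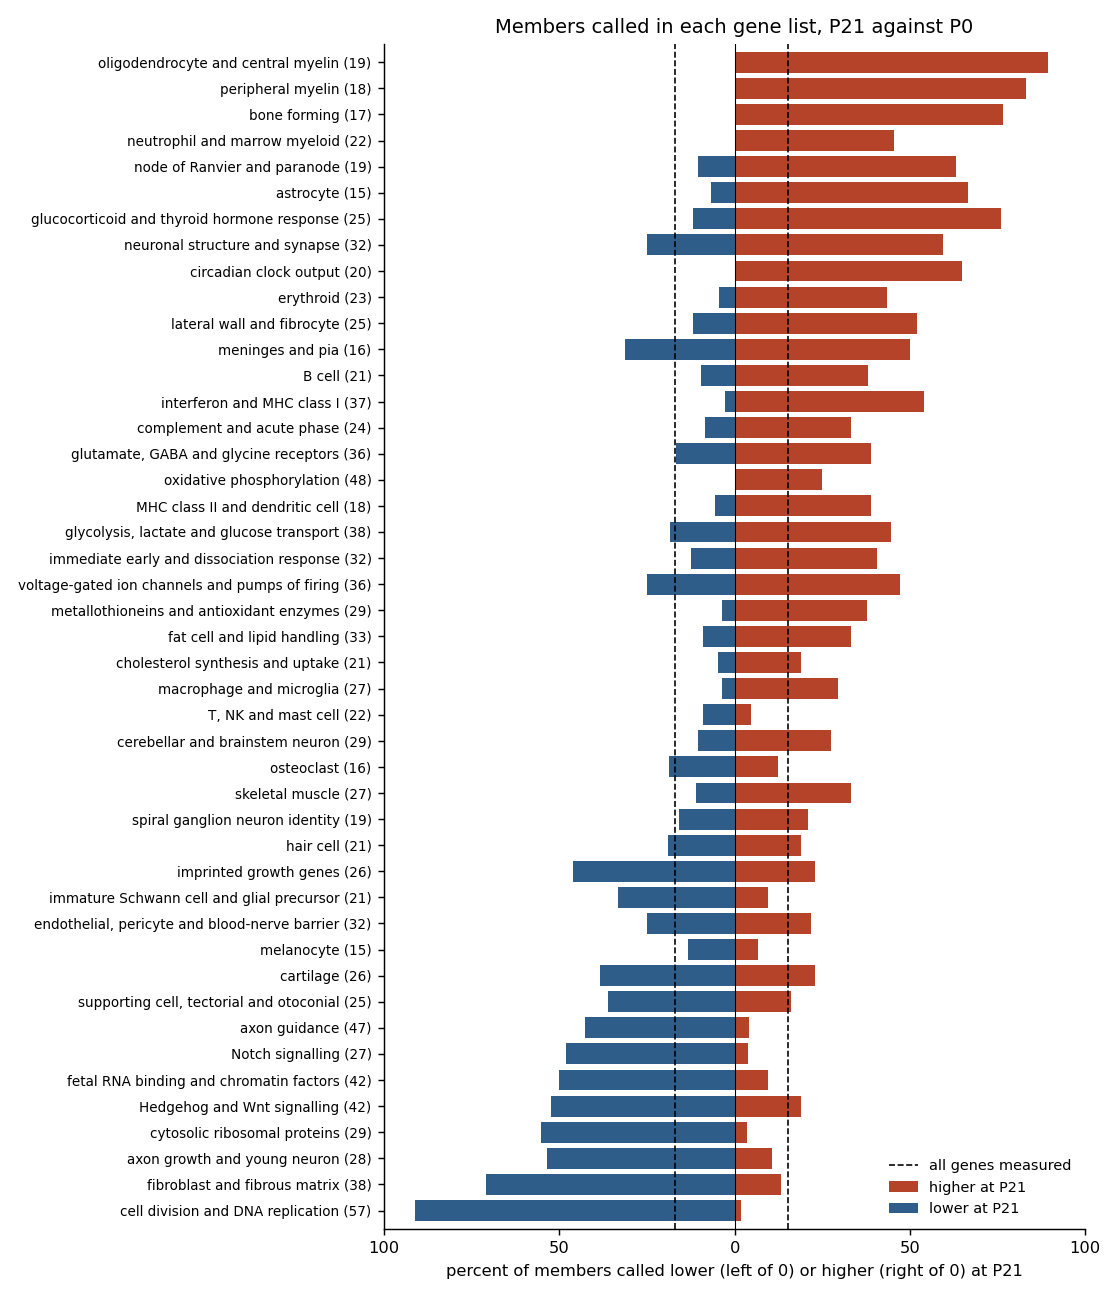
Percent of the members of each gene list called lower at P21 (left of 0) or higher at P21 (right of 0), with the number of measured members in parentheses, ordered by the list's median difference. Dashed lines mark the shares over all genes measured, 15.3% higher and 16.9% lower, and the bars run from 89.5% higher for oligodendrocytes to 91.2% lower for cell division.

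Counts of marrow and blood cell genes depended on single arrays. Of 22 neutrophil and marrow myeloid genes, 10 were higher and none lower (median 1.65). S100a8, a calcium-binding protein of neutrophils, had 12.36 and 12.58 at P21, against 9.78 and 8.98 at P0 (3.09 ± 0.54, adjusted p = 0.00115), and the granule proteins Ngp and Camp rose by 3.28 ± 0.74 and 3.44 ± 0.77. Without P21 replicate 2, P0 replicate 1 or P0 replicate 2, between 5 and 6 genes of this list were called higher. Of 23 erythroid genes, 10 were higher and 1 lower (median 0.92), and 6 were higher without P0 replicate 1. The anion exchanger Slc4a1 of red cells had 10.45 and 10.43 at P21, against 6.37 and 6.83 at P0 (3.84 ± 0.77). In the fit with the Actb balance, 4 neutrophil and marrow myeloid genes and 0 erythroid genes were called higher.

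Of 21 B cell genes 8 were higher and 2 lower, with 2 higher without P0 replicate 1 and 5 without P21 replicate 2. The heavy chain Ighm rose by 2.32 ± 0.38, but by 0.37 and below the fold limit when its probe sets were averaged. The defining genes Cd79a and Cd79b were not called, though Cd79b passed in a fit of the 4 arrays alone (1.09, adjusted p = 0.0112). Relative to P0 the medians at P14 were 2.71 for neutrophils and 1.42 for B cells, but the P14 arrays differed. Camp had 9.85 and 10.35 at P21, against 12.83 and 10.00 at P14 (adjusted p = 0.358), so that P14 replicate 2 was at the P21 level. Of 27 macrophage genes 8 were higher and 1 lower (median 0.25). In the fit with the Actb balance, 2 macrophage genes and 0 B cell genes were called higher. The lysozyme genes Lyz1 and Lyz2, which neutrophils and macrophages share, rose by 2.67 ± 0.34 and 2.46 ± 0.40, and Csf1r, C1qa and Adgre1, which define macrophages, were not called at 0.36, 0.46 and 0.05.

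Of 37 interferon-response and antigen presentation genes, 20 were higher and 1 lower (median 0.67). Ifit1, an antiviral RNA-binding protein, had 9.10 and 9.70 at P21, against 6.22 and 5.98 at P0 (3.30 ± 0.25, adjusted p = 7.35e-06), and its value at P21 was 1.71 above P14 (adjusted p = 0.0128). Gbp2 rose by 2.10 ± 0.15 and Ifit3 by 2.36 ± 0.32, whereas the GTPase Iigp1 fell by 1.78 ± 0.17. Of 24 complement and acute phase genes, 8 were higher and 2 lower (median 0.42). C2 rose by 2.15 ± 0.16 and the C1 inhibitor Serping1 by 2.09 ± 0.18. In the fit with the Actb balance, 2 genes of the interferon list and 0 of the complement list were called higher.

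Many genes of the daily clock and of hormone response rose. Of 20 clock output genes, 13 were higher at P21, none lower and 7 not called (median 0.97), and the P21 arrays stood at 9.32 and 9.36 in the mean of this list, against 8.34 and 8.35 on the P0 arrays. Dbp, a clock-driven transcription factor, had 12.76 and 12.20 at P21, against 10.27 and 10.36 at P0 (2.16 ± 0.23, adjusted p = 5.17e-05). Per2, a core repressor of the clock, had 8.22 and 8.0 at P21, against 6.33 and 6.47 at P0 (1.71 ± 0.17) and was 1.0 above P14 (adjusted p = 0.0206). Without P21 replicate 2, 2 clock genes were called lower. The repressor Bhlhe40 rose by 2.08 ± 0.12 and the nuclear receptor Nr1d2 by 1.90 ± 0.18. The E-box CACGTG, to which the clock activators bind, was found on either strand in 5 of the 17 clock genes with a promoter window (29.4%, against 10.2% of all measured genes with one). CCAAT was present in 13 of these 17 (76.5%), so that a high share of CCAAT is not particular to the cell division list. Of the clock genes, 1 was called higher with the Actb balance in the fit. The labels give no hour of collection, so stage and time of day cannot be told apart for these genes.

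Of 25 genes that respond to glucocorticoids or thyroid hormone, 19 were higher and 3 lower (median 1.26). Thrsp, a thyroid hormone-induced regulator of fat synthesis, had 8.82 and 8.80 at P21, against 5.74 and 5.42 at P0 (3.23 ± 0.18). Dio2, the enzyme that activates thyroid hormone, had 10.48 and 10.77 at P21, against 7.45 and 7.23 at P0 (3.28 ± 0.14), after a higher level at P7, where it stood 5.50 above P0. Of 32 immediate early and tissue dissociation genes, 13 were higher and 4 lower (median 0.34). The heat shock genes Hspa1a and Hspb1 rose by 1.93 ± 0.20 and 2.00 ± 0.16 and were also higher at P21 than at P14, by 0.96 and 0.86 (adjusted p = 0.034 and 0.0246). The Actb balance as a covariate left 6 hormone response genes called higher and 2 lower. It left 1 immediate early or dissociation gene called higher and 0 lower. Thrsp and Hspa1a lost their calls in that fit.

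Single genes reached their P21 level at different times. Mag and Otos had covered most of the distance by P7, at 4.04 and 8.01 above P0, and Tecta by P10, with a difference of -6.54 from P0. Gap43 stood below P0 at every later stage, with differences of -0.61 at P3, -1.74 at P7, -3.16 at P10 and -3.34 at P14. Hapln2, Prg4 and Col2a1 still changed after P14, and Prg4 was 2.64 higher at P21 than at P14 (adjusted p = 0.0137). Oc90 was still falling, and it fell by 2.62 at P21 relative to P14 (adjusted p = 0.00196). Changes after P14 coincide with the higher 3′ to 5′ balance of the P21 arrays, and the part of that balance in them was not tested.

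**Figure D5:**
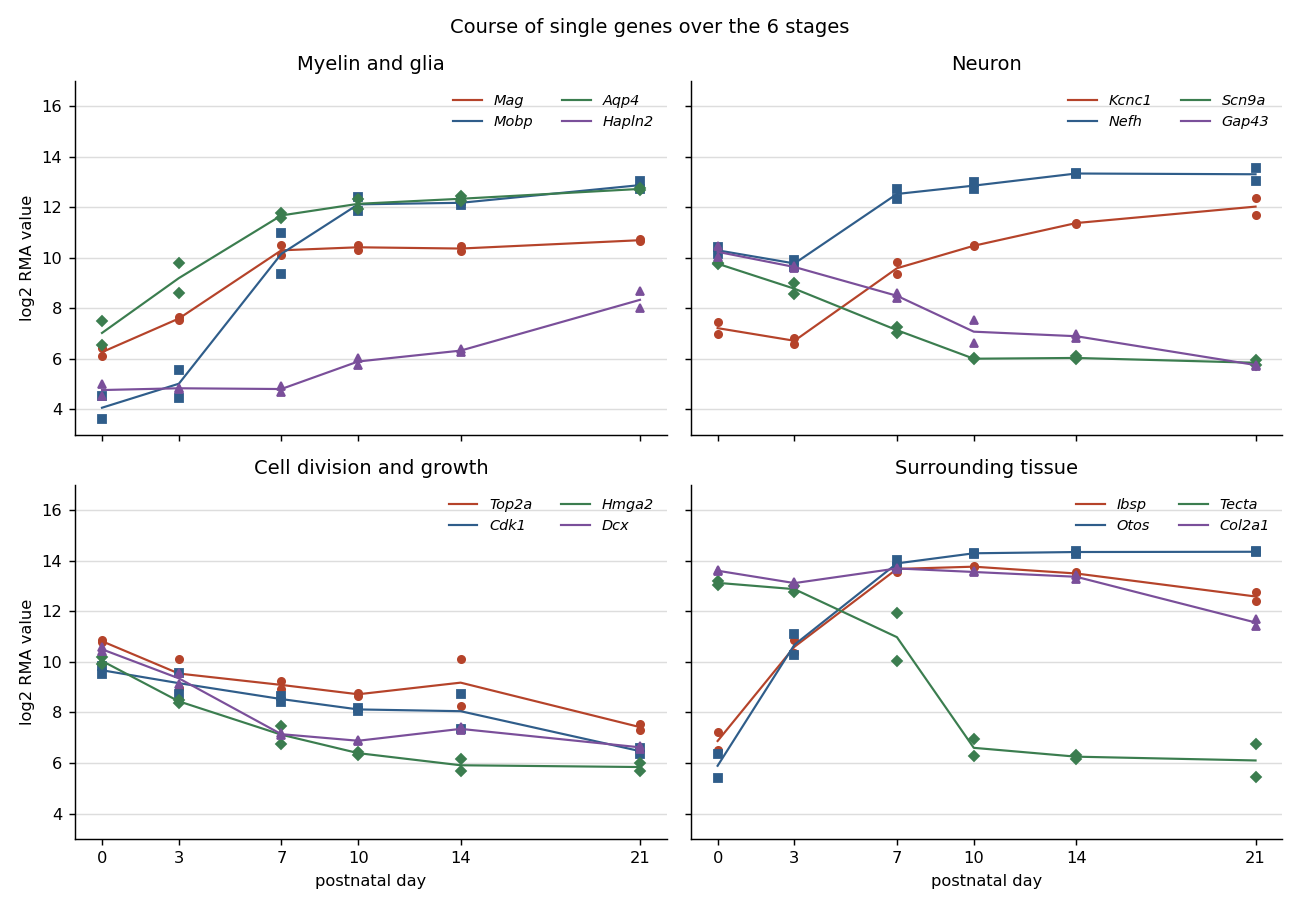
Log2 RMA value (vertical axis) of 16 genes against postnatal day (horizontal axis), with a point per array and a line through the stage means. Mag and Otos are near their P21 level by day 7, Hapln2 rises and Col2a1 falls mainly after day 14, and Gap43, Dcx and Hmga2 end near the bottom of the range.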

How the data were processed

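RNA of 12 modiolus samples, each labelled as the paired cochleas of a mouse, was hybridised to Affymetrix whole-genome mouse 3′ expression arrays. The deposited table holds log2 values that the authors made with RMA (background correction, quantile normalisation and a summary per probe set) in Expression Console, whose version is not given in the sources used here. RMA makes array distributions nearly alike (medians 6.70 to 6.79), so an overall rise or fall of RNA cannot be seen, and it compresses differences of dim probe sets.

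No further normalisation was applied, and 64 control probe sets of 45101 were kept out of the tests. Of the 45037 tested, 34945 have 1 gene symbol in the platform annotation, 932 several and 9160 none, and only the first kind was named. A gene is its probe set with the highest mean over the 12 arrays (18193 genes). Groups were taken from the stage in the labels. The difference P21 minus P0 was fitted with limma 3.58.1 (lmFit, eBayes) in R 4.3.3 on all 12 arrays in 6 stage groups, with 6 residual degrees of freedom, with Benjamini-Hochberg adjustment over all probe sets tested. A change is called at an adjusted p under 0.05 and a fold over 1.5. The number of arrays, 2 a stage, limits the precision, and the p-values measure the spread between these arrays. Neither batches nor scan times are in the labels. On simulated data with 45037 probe sets, the fit recovered 20 of 67 changes of 1.5-fold, 54 of 67 of 2-fold and 66 of 66 of 4-fold. It made 8 false calls. No other probe sets were changed there, far fewer than were called in the data, and all stages had the same spread. The recovery and the false calls therefore do not carry over to the calls reported here.

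Where a stage lay in the lowest 25% of values on both of its arrays, the fold is a bound, computed with the dimmer stage at that percentile or at its own value if higher. Promoter windows and symbols came from RefSeq (GRCm38.p6), and a gene counts as holding a motif where any of its windows does. Named genes were the 15 largest rises and the 15 largest falls among called genes with a full symbol whose arrays did not overlap. Added to these were the 6 called members of each gene list with the largest difference and its defining markers. The 13 genes that the study showed to change by PCR, listed paralogues, Actb and Gapdh were named too. The comparison, the 47 lists counted (1173 genes) and the tests were chosen with earlier results of these data known, and the lists are not independent support. Alternatives were leaving out each array, the 4 arrays alone, a replicate block, the Actb or Gapdh balance as a covariate, an intensity trend, array weights, a common median, leaving out dim probe sets, a 2-fold limit, the methods' t-test and averaging a gene's probe sets. The table held 0 columns of other samples.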

Additional observations from a re-analysis of the deposited data

Results flagged for a closer look

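The control probe sets, which the comparison does not use, stood apart at P21. The excess of the 3′ over the 5′ probe set was 1.24 larger at P21 than at P0 for Actb and 1.02 larger for Gapdh (log2), and on both P21 arrays it was above every other array. The part of RNA length or labelling in the changes between P21 and P0 was not tested.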

How the results depend on the processing

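The comparison called 12262 probe sets, and without 1 of the 4 arrays it called 10990 to 12258 (5012 to 5672 higher, 5978 to 6586 lower). With the replicate number as a block 12321 probe sets were called. The correlation of replicate deviations was above 0.1 in 6 of 15 stage pairs (range -0.125 to 0.317). Whether samples with the same number belong together was not tested. The replicate block changed no call of a gene named in the report. With the numbers crossed, added after seeing the data, 12398 were called, with a correlation of -0.125 between P21 and P0. The 4 arrays alone, an intensity trend, array weights, a common median and leaving out dim probe sets kept the counts within 1.5 times, at 11761 to 12339.

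With the Actb balance as a covariate 605 probe sets were called, 365 higher and 240 lower (60.3% of calls higher, against 45.4%), with 95 of 651 called list genes and 61 of 156 called genes named in the report. With the Gapdh balance, added after seeing the data, the counts were 658, 408 and 250 (62.0% higher), with 108 list genes and 68 named genes, 67 of them called without it and the other Slc1a2. Of the 156 named genes, 155 kept their direction with the Actb balance. Fgf10 turned to 0.08 with it, and Pmp2 turned to -0.78 with the Gapdh balance. A limit of 2-fold left 5993 probe sets, 2749 higher and 3244 lower. The methods' t-test called 9117 before and 24 after Benjamini-Hochberg adjustment (9 higher, 15 lower), with 2 list genes and 0 named genes, each stage having 2 arrays. Averaging the probe sets of each gene gave 5079 calls among genes, in place of 5858, and Glra1 (1.22), Ighm (0.37), Nedd4l (-0.25) and Prph (-0.24) lost their calls. It moved the difference of 40 of the 156 named genes by more than 1.5 times. In that setting 14 Hedgehog and Wnt genes and 4 glycolysis genes were lower, in place of 22 and 7. Counts of a few genes in a list moved by more than 1.5 times in several settings, among them those of skeletal muscle genes called lower. Values in the lowest 25% of an array limit 279 called genes to bounds.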

Other observations

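Skeletal muscle genes, which the report does not describe, were unevenly spread. Of 27 genes in the list, 9 were higher at P21 and 3 lower (median 0.04), with 1 to 6 lower when 1 array was left out. Myl1, a light chain of fast muscle myosin, had 11.21 and 11.38 at P21, against 7.37 and 8.75 at P0 (3.24 ± 0.37), and the giant filament gene Neb was at least 3.75-fold higher. The muscle creatine kinase Ckm, with 6.27 and 6.50 at P21 against 6.32 and 6.38 at P0, was not called. The levels of the list averaged 6.78 and 6.95 on the P21 arrays and 6.25 and 6.75 on the P0 arrays.

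Osteoclast genes showed little net change. Of 16 genes, 2 were higher at P21 and 3 lower (12.5% and 18.8%, near the 15.3% and 16.9% of all genes, median 0.20). Acp5, the acid phosphatase that defines osteoclasts, had 6.10 and 6.67 at P21, against 6.47 and 4.82 at P0, and was 3.86 lower at P21 than at P14 (adjusted p = 0.022). Cpa3, the carboxypeptidase of mast cell granules, had 5.20 and 5.40 at P21, against 8.06 and 7.08 at P0 (-2.27 ± 0.33), and Cma1, a mast cell chymase, differed by -1.32 ± 0.26. Of 22 genes of T, natural killer and mast cells these were the 2 that fell, and 1 gene rose, or 2 without P0 replicate 2.

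Fat cell and lipid genes counted 11 of 33 higher and 3 lower (median 0.28). Scd1, which desaturates fatty acids, rose by 2.18 ± 0.17 and the fatty acid carrier Fabp3 by 2.38 ± 0.15, while the fat cell markers Adipoq and Fabp4 were not called, though Adipoq passed in a fit of the 4 arrays alone (1.23, adjusted p = 0.0143). Of 18 genes of MHC class II and dendritic cells, 7 were higher and 1 lower (median 0.39), with Flt3, a receptor of dendritic cell precursors, at 2.58 ± 0.22.

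Of 15 melanocyte genes, 1 was higher and 2 lower (median -0.21), with 1 lower without P21 replicate 2 or without P0 replicate 2. Of 29 metallothioneins and antioxidant enzymes, 11 were higher and 1 lower (median 0.30). Of 62 paralogues known to exchange during maturation, 22 were higher, 19 lower and 21 not called (median 0.27).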
